A study of Homo sapiens with 4 samples.

Results

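The array of LNCaP cells given 10 nM R1881 was set against the array of untreated LNCaP cells, for the human miRNAs on the design. These are 2 of the 4 arrays of the series. Members were the probes named for a human miR or let-7 miRNA, without the copies that carry 2 mismatched bases, and 455 probes met that rule. The treated group is LNCaP cells that received 10 nM R1881, and its reference is LNCaP cells that received 0 nM. Both had first spent 24 hours in medium without androgen, supplemented with charcoal-stripped serum at 10%. The length of the treatment is not given in the sources used here. The remaining arrays, from cells given 0.1 or 1 nM R1881, entered the normalisation and are quoted beside some results. From Trizol extracts of total RNA, 10 µg was labelled with Cy3 for a 1-colour custom CombiMatrix array, on which the labels count 474 human miRNAs. A dose is represented by a single array, so no value has a replicate error and no test between conditions was possible.

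LNCaP is an established line from a human prostate adenocarcinoma that expresses the androgen receptor and needs androgen for full growth. R1881, or methyltrienolone, is a synthetic androgen that cells degrade poorly. The androgen receptor is a transcription factor that enters the nucleus and binds DNA once it holds an androgen. A miRNA is a short RNA, cut from a hairpin precursor, that guides Argonaute proteins to mRNAs and lowers their translation or stability. Target choice rests mostly on the seed, bases 2 to 8 of the mature miRNA, so miRNAs with 1 seed form a family with overlapping targets. Neighbouring miRNA genes are often cut from 1 primary transcript.

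The mature sequences below belong to the miRNAs and families that the comparison turns on, from RefSeq (GRCh38.p14), 5′ to 3′, with the seed in capitals. The arm was assigned from the current names of the miRNAs, since the files give no probe sequences. The first set holds some of the miRNAs with the highest ratios to the untreated array, with family members. MiR-601, miR-197 and miR-574 also had high ratios and are not printed.
miR-494: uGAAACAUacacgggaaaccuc
miR-214: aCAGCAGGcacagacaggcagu
miR-568: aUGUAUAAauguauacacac
miR-29a: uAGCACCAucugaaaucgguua
miR-29c: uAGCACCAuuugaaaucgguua
miR-29b: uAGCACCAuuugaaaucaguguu
miR-148a: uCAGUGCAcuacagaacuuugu
miR-148b: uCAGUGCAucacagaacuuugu
miR-16: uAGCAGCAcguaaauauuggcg
miR-195: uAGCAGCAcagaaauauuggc
miR-15a: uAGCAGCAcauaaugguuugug

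The second set belongs to families that were lower at 10 nM, or whose members lay apart.
miR-221: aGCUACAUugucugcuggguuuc
miR-222: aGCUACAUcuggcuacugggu
miR-23a: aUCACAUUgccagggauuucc
miR-23b: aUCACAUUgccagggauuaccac
miR-26a: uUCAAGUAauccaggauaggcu
miR-26b: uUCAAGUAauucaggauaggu
miR-17-5p: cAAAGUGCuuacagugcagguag
miR-106a: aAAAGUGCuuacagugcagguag
miR-106b: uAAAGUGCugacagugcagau
miR-99a: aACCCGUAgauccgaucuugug
miR-100: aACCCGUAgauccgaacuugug
miR-29a and miR-29c differ at 1 position, as do miR-17-5p and miR-106a, miR-99a and miR-100, and miR-23a and miR-23b over the 21 positions they share. A probe with 1 mismatched base was not analysed here, so how far such pairs share signal was not tested.

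Signal is given as net signal, the intensity of a probe minus its array's median mismatch signal, which was 280.25 at 10 nM and 371.5 in untreated cells. A miRNA was called detected when its signal exceeded that median by 3 times the scaled median absolute deviation of the mismatch signals, a net signal of 144 at 10 nM and 147 in untreated cells. In RNA from whole cultures, fewer cells that carry a miRNA and less of it per cell cannot be told apart. Log2 ratios are those of background-corrected, quantile-normalised intensities, 10 nM over untreated. The offset of 50 in that correction draws the ratios of dim probes towards 0.

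The 10 nM array detected 74 of the 455 human miRNAs and the untreated array 62. Both detected 57, the 10 nM array alone 17 and the untreated array alone 5, which makes 79 measured miRNAs. The 5 were miR-663, miR-222, miR-497, miR-92 and miR-130b, the last with 130 at 10 nM and 166 untreated and named after its values were seen. The other 376 were detected on neither array, with net signals from -97.25 to 129 at 10 nM and from -141.5 to 140.5 in untreated cells. Of 10 markers of epithelium and prostate, 6 were detected on both arrays, among them miR-141, miR-200c and miR-203. MiR-205 and miR-375 were below the threshold on both arrays. The net signals of miR-205 were -3.75 at 10 nM and 12.25 untreated, and those of miR-375 were 120 and 97.5. All 7 markers of blood, 4 of muscle and 4 of liver or neuron were below the threshold on both arrays. Their summed net signals at 10 nM and untreated were 2 and -246.75 for blood, 68.25 and -203.25 for muscle, and 134.75 and 87.5 for liver or neuron. Of 5 markers of stroma and endothelium, 4 were not detected, and miR-214 was detected at 10 nM. The summed net signal of those 5 probes was 433 at 10 nM and 32.25 in untreated cells, and the part of other cells in it was not tested.

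More than the human miRNAs stood out from background on the 10 nM array. It detected 16 of 604 mismatch probes and the untreated array 4. Of 167 mouse probes it detected 23 and the untreated array 15, of 56 rat probes 4 and 5, and of the viral and worm probes 9 and 2. The control probe Bio B had a net signal of 2550.5 at 10 nM and 1276 untreated, Bio C 1889 and 1563, and the brightest glycine tRNA probe 665 and 299. The U6 control was not above background on either array. How much these array differences contribute to the miRNA ratios was not tested. Mismatch signals or their differences are given, singly or as a range, for the 24 miRNAs at least 0.5 log2 from 0.

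Of the 79 measured miRNAs, 4 (5.06%) differed by 2-fold or more. Higher at 10 nM were 3 (3.8%), miR-494, miR-214 and miR-568, and lower was 1 (1.27%), miR-30b. The 3 higher miRNAs were not detected in untreated cells, so their ratios are set against a background value. At most the bounds given below are supported, for this normalisation alone and without allowance for the spread between probes. Without background correction the log2 ratios of miR-494 and miR-663 were 1.01 and -0.44, beside 1.55 and -0.80. The bounds of miR-214 and miR-568 fall short of 2-fold. Over the 57 miRNAs detected on both arrays, 0 were higher and 1 was lower by 2-fold. The same limit holds for every ratio of a miRNA detected on 1 of the 2 arrays. The median log2 ratio of the 79 was 0.00, with an SD of 0.52 over miRNAs and quartiles of -0.33 and 0.22. In all, 36 lay above 0, 39 below and 4 exactly at 0, namely let-7a, let-7d, miR-100 and, named after its values were seen, miR-320. Median centring moved the median by 0.10 and put 46 above and 33 below 0, so the share of higher miRNAs was 58.2% with centring and 45.6% with quantile normalisation. Within 0.5 log2 of the untreated array lay 55 of the 79. A rough measure of the spread between probes came from 12 pairs of a human probe and a mouse or rat probe of the same miRNA name. Their ratios differed by a median of 0.26 and at most 0.63. That largest difference, for miR-99a, was -0.009 with centring, where the median was 0.19. The root mean square difference, shared between the probes of a pair, gave an SD of 0.24 log2, called the probe SD. Probe sequences are not given, so it may include sequence differences between species. The mouse probes of miR-203 and miR-494 were not detected in untreated cells. The SD covers spots of the same hybridisations and says nothing of the spread between cultures.

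**Figure D1:**
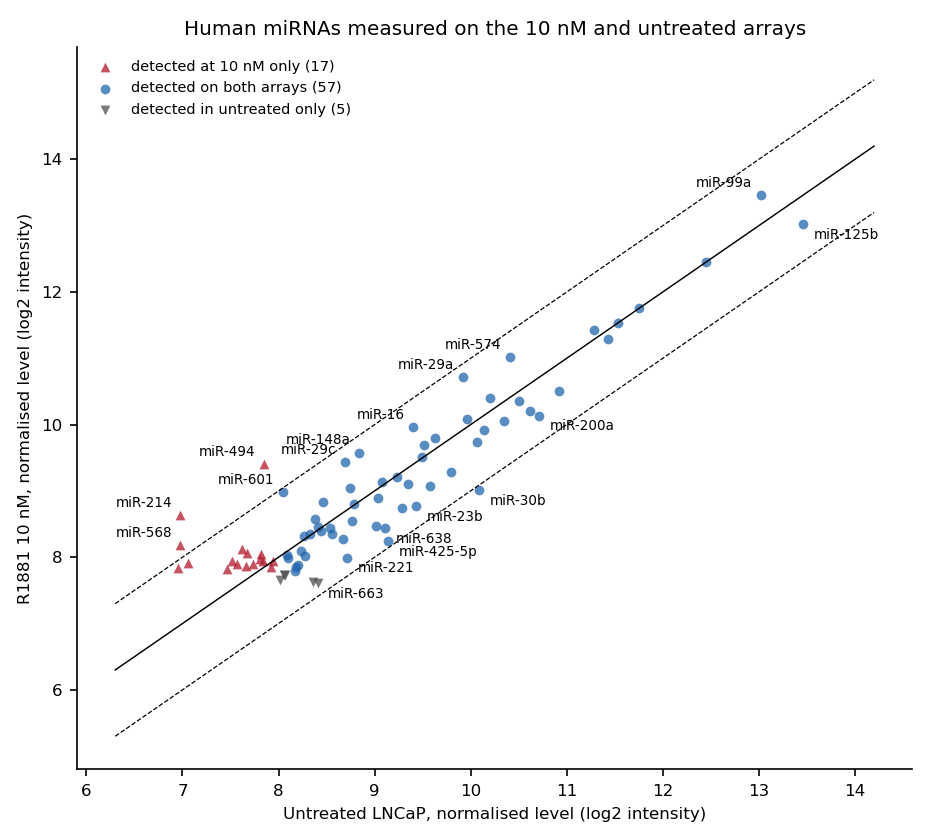
Normalised levels (log2 intensity) of the 79 measured human miRNAs on the 10 nM array (vertical axis) and the untreated array (horizontal axis); each point is 1 miRNA, the solid line marks equal levels and the dashed lines 2-fold. Points lie close to the equal line, with miR-214, miR-494 and miR-568 above the upper dashed line and miR-30b just past the lower one.

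MiR-494, a miRNA of the large imprinted cluster on chromosome 14, had the highest bound on its fold. Its net signal was 799 at 10 nM and 116.25 in untreated cells, where it was not detected. By normalised levels it was thus at least 2.62-fold higher. Such a bound sets the normalised level on the brighter array against the lowest level of any detected match probe on the dimmer one, or against the miRNA's own level there if that is higher. Its mismatch probe stood at -95.25 at 10 nM and -37 untreated, so the mismatch probe was not higher at 10 nM. The mouse probe of the same name had net signals of 391.5 and 7.75 on those arrays, and its log2 ratio of 1.75 lay beside 1.55 for the human probe. At 0.1 nM the human probe had a net signal of 71.5, and at 1 nM 494. MiR-432, which also lies on chromosome 14, was detected at 10 nM alone, with net signals of 184.5 at 10 nM and 71.75 untreated and a log2 ratio of 0.42. Its mismatch probe stood at 102.75 and 101.5.

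MiR-214, which is known from stroma and developing muscle, had a net signal of 377 at 10 nM and 11.25 untreated. The mismatch probe gave 47.25 and 17.5. The bound was at least 1.53-fold higher, and on the arrays at 0.1 and 1 nM the miRNA was not detected, at 43.5 and 36.75. Its signal thus passed the detection threshold on the 10 nM array and on no other array of the series.

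MiR-568 was detected at 10 nM alone, and its match probe was dimmer there than its mismatch probe. The match probe had 237 at 10 nM and 11.25 untreated, and the mismatch probe 578 and 15. The match probe was at least 1.12-fold higher, and its log2 ratio to the undetected untreated signal was 1.20. The mismatch probes of miR-197 and miR-595 were also detected at 10 nM, beside log2 ratios of 0.86 and 0.87. For miR-197 the match probe had 178 and 19.5, and the mismatch probe 219 and -44. For miR-595 the match probe had 160.5 and 9.75, and the mismatch probe 146 and 20.5. Subtracting each probe's own mismatch signal left miR-568 and miR-595 at the floor of 16 on both arrays, where values have no order. It turned the log2 ratio of miR-197 to -2.13. That ratio sets the floor at 10 nM against a difference of 63.5 untreated, so its size depends on the floor.

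At a log2 ratio of 0.5 or more stood 12 miRNAs, which the match probe's ratio selected. In 10 of them the match probe was higher by more net signal than its mismatch probe, a count that this selection favours. MiR-568 and miR-197 were the others. Among those detected on both arrays, miR-601 had the highest ratio, 0.93. Its net signal was 526 at 10 nM and 161 untreated, 3.26-fold by net signal, beside 122.75 and -13 for its mismatch probe. MiR-574 had 2362 at 10 nM and 1406 untreated, a log2 ratio of 0.61, beside 139 and 1.5 for its mismatch probe.

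**Figure D2:**
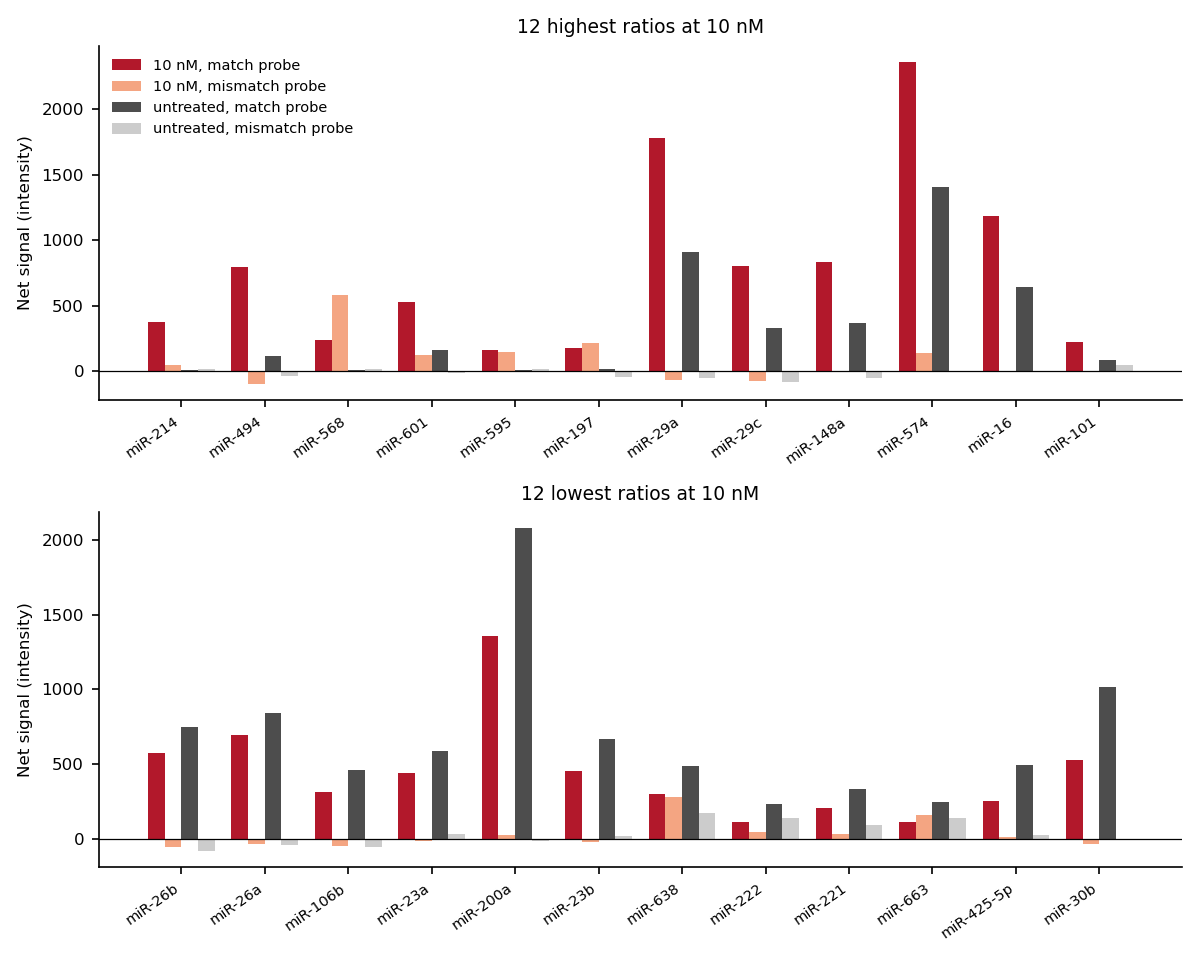
Net signal (intensity) of the match probe and of its own mismatch probe on the 10 nM and untreated arrays, for the 12 miRNAs with the highest and the 12 with the lowest log2 ratios; each bar is 1 probe on 1 array. The mismatch bars are near 0 for most, and reach or pass the match bar at 10 nM for miR-568, miR-197 and miR-663.

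The miR-29 family, which represses collagen and other extracellular matrix mRNAs and DNA methyltransferases, was the seed family with the highest median log2 ratio, 0.74, and all 3 members were higher. MiR-29a had a net signal of 1781.5 at 10 nM and 906 untreated, a log2 ratio of 0.80. MiR-29c had 801 and 330, a ratio of 0.74, and miR-29b had 1347.5 and 946, a ratio of 0.13. The 3 mismatch probes lay between -83.5 and 1.5 on both arrays. MiR-29b lies beside miR-29a on chromosome 7 and beside miR-29c on chromosome 1, and its ratio lay 0.67 and 0.61 log2 from theirs, beside the largest difference of 0.63 between probes of the same name. With median centring the ratios of miR-29a, miR-29c and miR-29b were 0.83, 0.97 and 0.40.

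MiR-148a, which is abundant in many epithelia, had a net signal of 836.5 at 10 nM and 366.5 untreated, a log2 ratio of 0.74. Its mismatch probe was at 1.75 and -52.5. MiR-148b shares the seed, differs at 2 positions, and had 171 and 91.5, detected at 10 nM alone, with a ratio of 0.21. The relative miR-152 was not detected on either array. MiR-101, which targets the histone methyltransferase EZH2, was detected at 10 nM alone, at 225 beside 87.25 untreated, and was at least 1.08-fold higher. Its mismatch probe gave 2.75 and 44.

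In the miR-15 and miR-16 family, whose targets include cyclins and BCL2, 1 of 5 measured members was higher and 4 were lower, with a median of -0.26. MiR-16 was the member apart, with 1182 at 10 nM and 645 untreated and a log2 ratio of 0.56, while its mismatch probe stayed at -8.75 and -9. MiR-15a had 264 and 329, a ratio of -0.41, and lies beside a miR-16 gene on chromosome 13. MiR-15b, beside the other miR-16 gene on chromosome 3, had 219.5 and 206, a ratio of -0.14. MiR-195 differs from miR-16 at 2 of 21 positions and had 207.5 and 212.5, a ratio of -0.26. Its chromosome 17 neighbour miR-497 was detected in untreated cells alone, at 129.75 at 10 nM and 165 untreated, and was at least 1.20-fold lower. The log2 ratio of miR-15b was 0.01 without normalisation and 0.24 with its mismatch signal subtracted, and the family median was 0.03 in the authors' deposited value table.

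**Figure D3:**
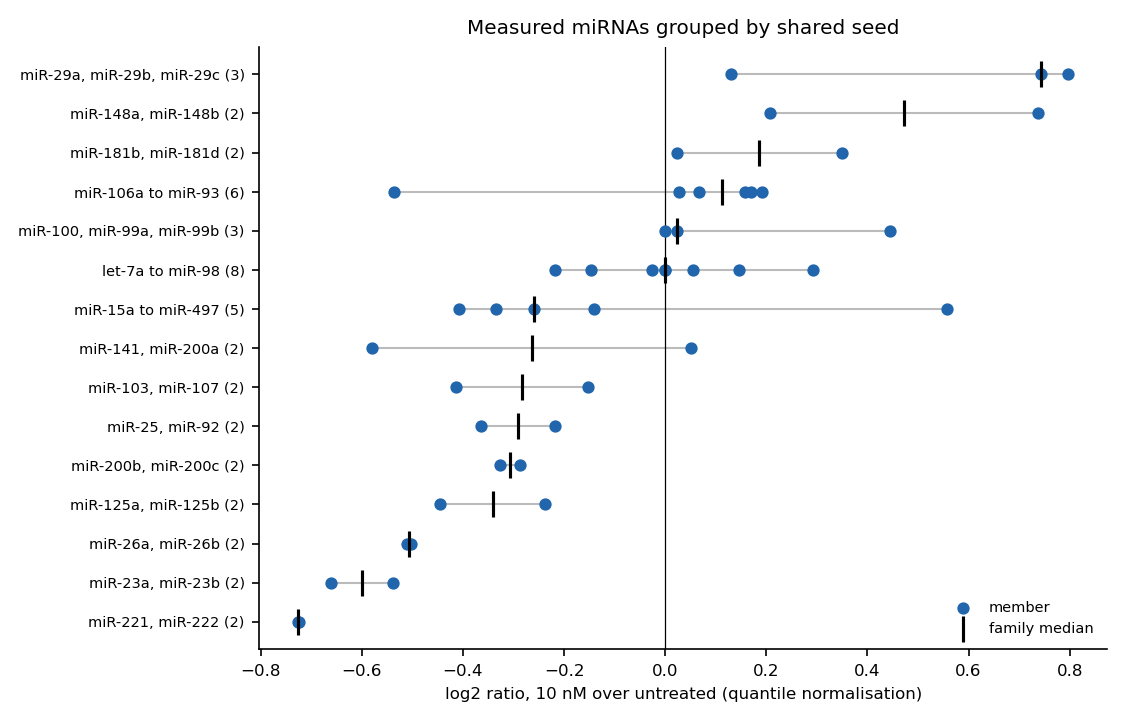
Log2 ratio (10 nM over untreated, quantile normalisation) of the members of 15 seed families with at least 2 measured miRNAs of matched sequence. Points are members, black ticks are family medians, and the number of members is in brackets. The miR-30 family is not drawn, as no sequence was matched for miR-30b and miR-30d, at -1.08 and 0.11. MiR-29 lies highest and miR-221 with miR-222 lowest, while miR-16 and miR-106b lie apart from their families.

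MiR-30b had the lowest log2 ratio, -1.08, with a net signal of 528 at 10 nM and 1016 untreated, or 2.11-fold lower. Its mismatch probe gave -35.25 and 0.5, and centring gave -0.90. At 0.1 and 1 nM the net signals were 130.75 and 612, so the lowest of the 4 arrays was that at 0.1 nM. In the miR-30 family, known for roles in epithelial identity, miR-30c stood at -0.20, with 283 at 10 nM and 293.5 untreated. MiR-30d, the neighbour of miR-30b, stood at 0.11 and was detected at 10 nM alone, at 189 beside 116 untreated. MiR-30a-5p and miR-30e-5p were not detected.

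MiR-425-5p followed at -0.89, with 251 at 10 nM and 493 untreated and mismatch signals of 11.25 and 28. Its chromosome 3 neighbour miR-191, cut from the same host transcript, had 1472 and 2119, a ratio of -0.42. The mismatch probe of miR-191 was detected at 10 nM, at 154 beside 20 untreated, and subtracting it gave -0.89. Both were lower, with ratios 0.48 log2 apart.

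MiR-221 and miR-222, neighbours on chromosome X that repress the cell cycle inhibitor p27, gave nearly equal ratios of -0.73 and -0.72. MiR-221 had 204 at 10 nM and 333 untreated. MiR-222 had 112.5 and 232, detected in untreated cells alone, and was at least 1.48-fold lower. Their mismatch probes were lower at 10 nM too, at 36.25 beside 90 for miR-221 and 46.25 beside 141 for miR-222. After subtraction of the mismatch signal the ratios were -0.70 and -0.82. The mouse probe of miR-221 stood at -0.37, with 245 at 10 nM and 309 untreated.

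MiR-23a and miR-23b, from related clusters on chromosomes 19 and 9, had ratios of -0.54 and -0.66. MiR-23a had 438 at 10 nM and 590 untreated, and miR-23b 454 and 668. The members miR-27a, miR-27b and miR-24 of these clusters were not detected on either array. MiR-26a and miR-26b, which like miR-101 target EZH2, gave -0.51 and -0.50. MiR-26a had 693.5 and 841.5, and miR-26b 573.5 and 750. All 4 of these miRNAs were lower under every scaling tried.

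Of the 12 miRNAs at -0.5 or below, the match probe was lower by more net signal than its mismatch probe in all 12. The match probe's ratio selected these miRNAs and most mismatch probes lay near background, so this count was likely in advance. The differences of 10 nM minus untreated ran from -716.5 to -119.25 for the match probes and from -94.75 to 110.75 for the mismatch probes. The mismatch probe of miR-638, at -0.67, was itself detected on both arrays, and that of miR-663, at -0.80, at 10 nM. MiR-638 had 300.25 at 10 nM and 489 untreated, and its mismatch probe 281 and 170. MiR-663 had 110 and 243.5, and its mismatch probe 157 and 138.5, so at 10 nM the match probe was the dimmer one and not detected. MiR-663 was at least 1.53-fold lower.

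**Figure D4:**
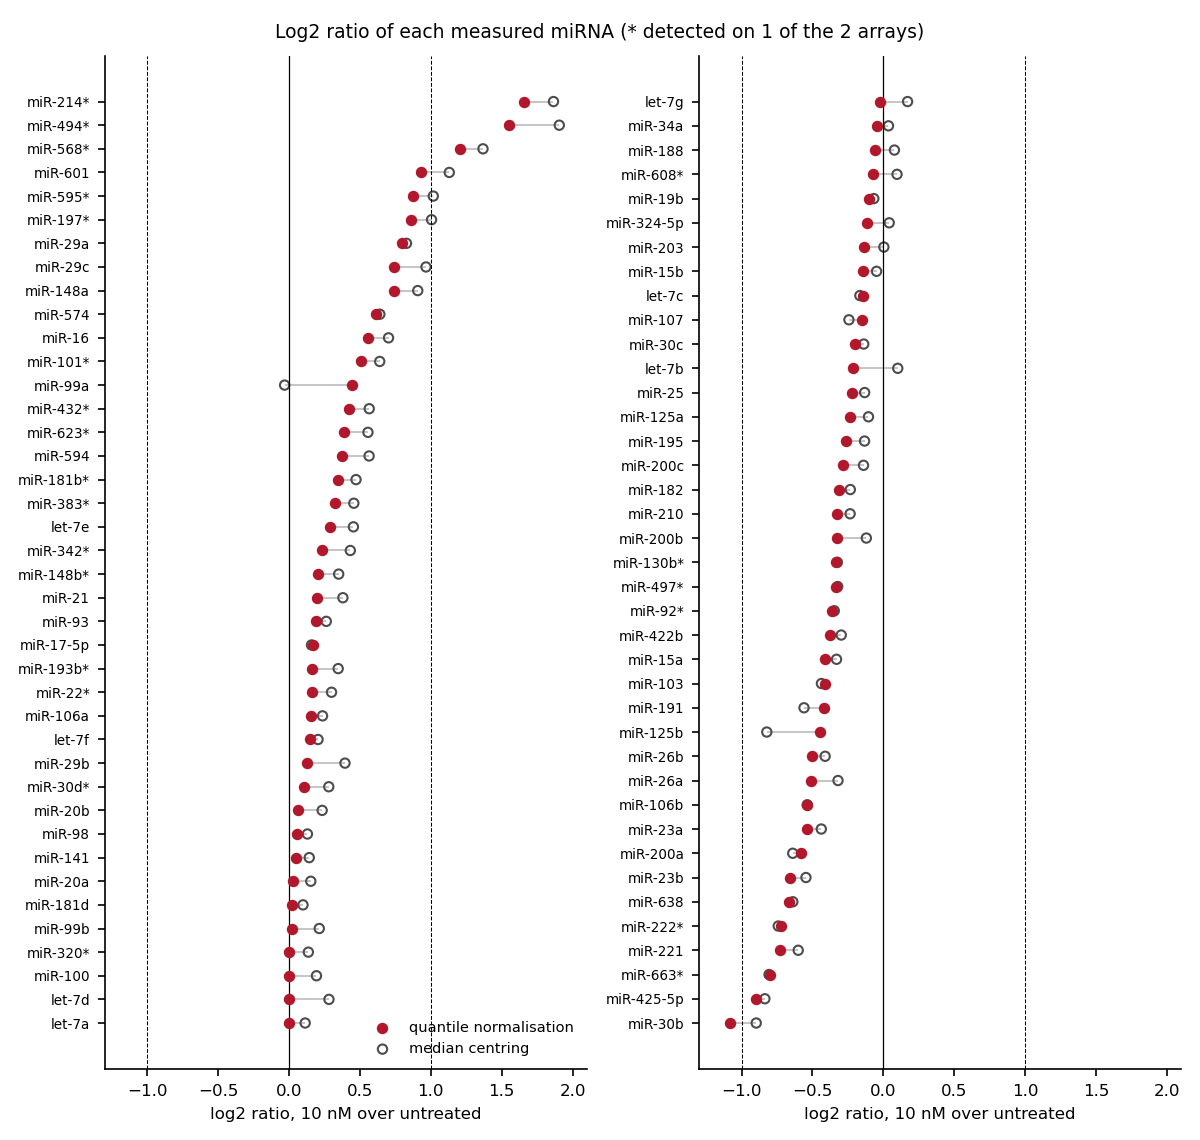
Log2 ratios (10 nM over untreated) of the 79 measured miRNAs in order, with quantile normalisation (filled) and median centring (open); dashed lines mark 2-fold and an asterisk marks detection on 1 of the 2 arrays. The scalings lie furthest apart for miR-99a and miR-125b.

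The brightest probes need their net signals, since quantile normalisation gives a probe the mean level of its rank. MiR-125b, which targets the pro-apoptotic BAK1, had 9499 at 10 nM and 16216 untreated. Its log2 ratio was -0.44 with quantile normalisation and -0.82 with centring. MiR-99a, which targets mTOR, had 10013 and 9828, with ratios of 0.44 and -0.03 by these scalings; the mouse probe of miR-99a stood at -0.18 and -0.02. MiR-99a and miR-125b exchanged the top ranks, which sets the 0.44 of both. MiR-100 had 3646 at 10 nM and 3038 untreated and miR-99b 462 and 353.5, with quantile ratios of 0.00 and 0.02. MiR-125a had 609.5 and 622 and a ratio of -0.24.

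MiR-99a and let-7c are neighbours on chromosome 21, and miR-99b, let-7e and miR-125a on chromosome 19. Let-7c had 2654 at 10 nM and 2860 untreated, a ratio of -0.15, while let-7e had 540.5 and 337, a ratio of 0.29. The let-7 family, which represses RAS, MYC and HMGA2, had 8 measured members, 3 higher, 3 lower and 2 at 0.00, with a median of 0.00. Let-7a had 5975 at 10 nM and 5288 untreated, and let-7d 4189 and 3281. Let-7b had 1167 and 1024, with a ratio of -0.22 that turned to 0.10 with centring. Let-7f, let-7g and miR-98 stood at 0.15, -0.03 and 0.06, and let-7g turned to 0.17 with centring. The family median was 0.15 with centring, 0.21 without normalisation and 0.29 in the authors' deposited value table. Let-7i was not detected.

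The miR-200 family, which holds cells in the epithelial state by repressing ZEB1 and ZEB2, had 3 of 4 measured members lower, with a median of -0.31. MiR-200a had 1359 at 10 nM and 2075.5 untreated, a ratio of -0.58, and its chromosome 1 neighbour miR-200b had 956 and 992.5, a ratio of -0.33. MiR-200c had 1302 and 1374.5, a ratio of -0.29, and its chromosome 12 neighbour miR-141 had 308.5 and 243.5, a ratio of 0.05. MiR-200a shares its seed with miR-141, from which it differs at 2 positions, and the pair lay 0.63 log2 apart. Median centring left the family median at -0.13. Of the other epithelial miRNAs, miR-203 stood at -0.14 and, with centring, at 0.004, from 504 at 10 nM and 467 untreated. Its mouse probe stood at 0.46, with 245.5 and 103, the second not detected. MiR-182 stood at -0.32, with 174 and 198.

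In the seed family of miR-17-5p, which promotes proliferation, 5 of 6 members were above 0 and miR-106b below, with a median of 0.11. That median was -0.01 when each probe's mismatch signal was subtracted, 0.20 with centring and 0.31 in the authors' deposited value table. MiR-17-5p had 855.5 at 10 nM and 711 untreated, miR-106a 998 and 784, miR-20a 819.5 and 683, miR-20b 612.5 and 470, and miR-93 340.5 and 240.5. Their ratios with quantile normalisation were 0.17, 0.16, 0.03, 0.07 and 0.19, all within the 0.24 probe SD of 0. In the value table they were 0.27, 0.35, 0.26, 0.38 and 0.50, all beyond it. Probes of the same names from other species gave 0.43 for mouse miR-106a, 0.45 for mouse miR-20b, 0.29 for rat miR-20b and -0.13 for mouse miR-93. MiR-106b had 310.5 and 462, a ratio of -0.54. It is cut from 1 transcript with miR-93 and miR-25 on chromosome 7, whose ratios were 0.19 and -0.22. MiR-25 had 334.5 and 346, and miR-92, of the same seed, 116.5 and 153.5, detected in untreated cells alone and at least 1.17-fold lower. MiR-19b had 300 and 291 and a ratio of -0.10.

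MiR-103 and miR-107, which differ at 1 position and lie in introns of the pantothenate kinase genes, stood at -0.41 and -0.15, and miR-107 turned to 0.10 with its mismatch signal subtracted. MiR-103 had 1405 at 10 nM and 1848.5 untreated, and miR-107 1455.5 and 1659. MiR-34a, which p53 induces, had 293.5 and 257, with a ratio of -0.04 that turned to 0.04 with centring.

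Lists of miRNAs described elsewhere as androgen-responsive were counted over their measured members. The lists were chosen with earlier results of these data known, so the counts are descriptive and no independent support. Of 13 described as raised by androgen, 8 were measured; 6 had ratios above 0 and 2 below, beside 36 above and 39 below of all 79, and the median was 0.16 beside 0.00. MiR-29a, miR-148a and miR-101, given above, led it. MiR-21, an abundant miRNA that targets PDCD4, had 1459.5 at 10 nM and 1040 untreated, with mismatch signals of 44.25 and 33. Its log2 ratio of 0.20 lay within the probe SD, and centring gave 0.38. MiR-125b and miR-182 were the members below 0, and miR-19a, miR-27a, miR-27b, miR-32 and miR-133b were not detected. Of 6 described as lowered, 5 were measured, with 1 above 0, 3 below, miR-100 at 0.00 and a median of -0.15. MiR-221 and miR-222 had the lowest ratios of these, and with centring miR-99a lay below 0 and miR-100 above.

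Gene neighbours, within 10000 bases in the RefSeq table of GRCh38.p14, formed 19 clusters among 76 of the 79 miRNAs that were located. The range of log2 ratios within a cluster had a median of 0.52. It was 0.00 for miR-221 with miR-222 and 0.07 for miR-195 with miR-497, and 1.19 for miR-30b with miR-30d and 0.97 for miR-16 with miR-15a. MiR-222, miR-497 and miR-30d were each detected on 1 of the 2 arrays. The ranges of their pairs thus rest on a value below the detection threshold. Some miRNAs, such as miR-16, are encoded at several loci, and an array probe sums over them.

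**Figure D5:**
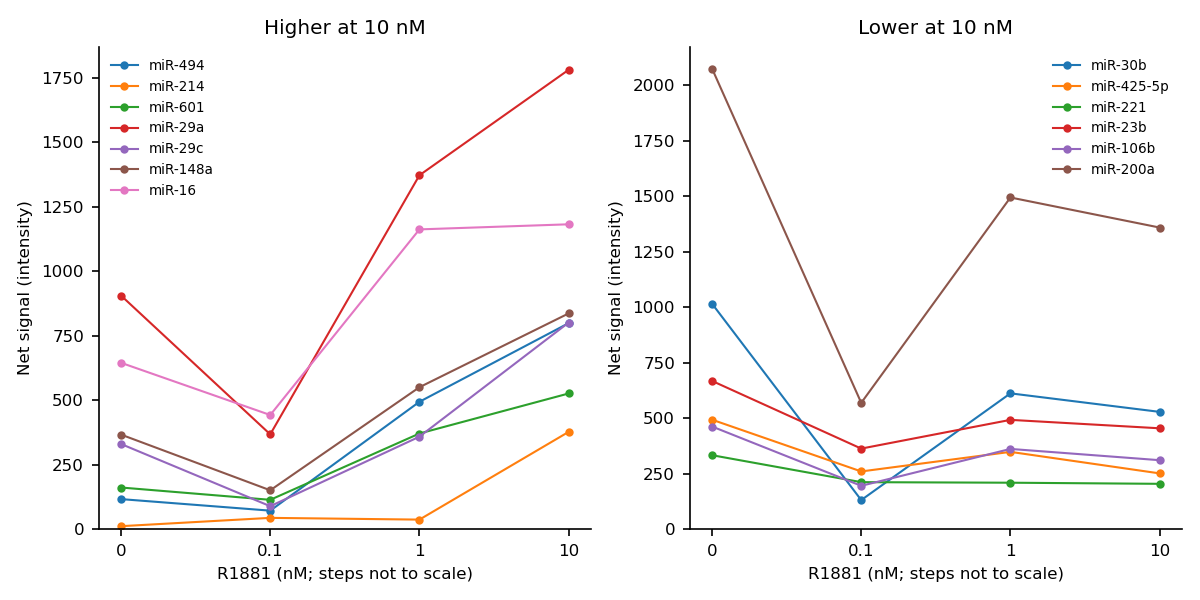
Net signal (intensity) on the arrays at 0, 0.1, 1 and 10 nM R1881 (steps not to scale) for 7 miRNAs that were higher and 6 that were lower at 10 nM; each point is 1 array. The array at 0.1 nM lies below the untreated array for every line except that of miR-214. Net signal is not normalised between arrays. With normalisation miR-16, miR-221 and miR-23b also lay above the untreated array at 0.1 nM, at log2 ratios of 0.28, 0.05 and 0.06, and the rest stayed below.

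The other doses share the untreated array with this comparison, so their ratios are given side by side and not as support. At 0.1 nM miR-29a stood at -0.40, and miR-148a and miR-494, not detected there, at -0.56 and -0.50. MiR-29c and miR-29b, also not detected at 0.1 nM, stood at -1.16 and -1.75. MiR-425-5p, miR-221 and miR-23b stood at -0.03, 0.05 and 0.06 on that array. MiR-30b was not detected at 0.1 nM, and miR-200a stood at -0.65 there and at -0.10 at 1 nM. At 1 nM the log2 ratios of miR-494, miR-601, miR-29a, miR-148a and miR-16 were 1.19, 0.76, 0.43, 0.39 and 0.69. Not all miRNAs above 0 at 10 nM were so at 1 nM. There miR-29c stood at 0.08, miR-29b at -0.39 and miR-21 at -0.25. The 1 nM ratios of miR-30b, miR-425-5p, miR-221 and miR-23b were -0.66, -0.45, -0.43 and -0.42.

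The 17 miRNAs detected at 10 nM alone had net signals from 157.5 to 799 on that array. Besides miR-494, miR-214, miR-568 and miR-101, bounds above 1-fold were found for miR-623 and miR-342, at 1.03 and 1.02. MiR-342, with 213 at 10 nM and 110 untreated, was named after its values were seen. Its mismatch probe gave 75.25 and -9.5, and subtracting that signal left a log2 ratio of 0.02. MiR-623 had 217 at 10 nM and 94 untreated, beside 91.25 and 77 for its mismatch probe. The 14 measured miRNAs that the naming rule did not pick had log2 ratios from -0.38 to 0.38.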

How the data were processed

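The authors deposited 1 mean signal per probe for each array, an intensity on a linear scale, per the file headers. No scanner or background step is named in the labels or headers used here. In the authors' deposited value table each filled cell is that intensity less the array's median mismatch signal, 280.25 at 10 nM and 371.5 untreated, so the values are linear levels and not ratios. Its column medians were 333.25 over 114 filled cells at 10 nM and 489 over 79 untreated, and dim cells are empty.

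Probes listed at 0 (7 at 10 nM and 4 untreated, mismatch probes only) were set to missing. Background was corrected by normexp (offset 50, every probe) with limma 3.58.1 in R 4.3.3, and the 785 match probes, whatever their species, were then quantile normalised across the 4 arrays. Python 3.11.15 computed the ratios. The script was tested on simulated data. The number of arrays limits the precision, and no test was made.

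The named miRNAs were the 15 highest and 15 lowest ratios, every one at 2-fold, up to 10 detected on 1 array, the 10 brightest at 10 nM, the measured members of the families and lists, and 3 others (miR-21, miR-125b and miR-141). Members and lists were chosen with earlier results of these data known. A mature sequence was matched by name in the RefSeq table for 71 of the 79 measured miRNAs. Alternatives were other background corrections, scalings, detection thresholds, filters, a 1.5-fold threshold and the value table.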

Additional observations from a re-analysis of the deposited data

Results flagged for a closer look

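Signals outside the human match probes appeared at 10 nM that the untreated array did not detect. The mouse probe of miR-494 had a log2 ratio of 1.75, with net signals of 391.5 at 10 nM and 7.75 untreated. The mouse probe of miR-709 had 1.34, with 717 and 142. The mouse probe of miR-713 had 2.01, with 219.5 and -80.25. Their part in the human ratios was not tested.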

How the results depend on the processing

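The counts at 2-fold, 3 higher and 1 lower, moved with the processing. Higher and lower counts were 1 and 0 without background correction, 6 and 6 with each probe's mismatch signal subtracted, 6 and 0 with median centring over all match probes, and 7 and 0 without normalisation. They were 4 and 0 with centring over miRNAs detected on both arrays, 2 and 0 in the authors' deposited value table, 6 and 1 with an offset of 16, and 10 and 7 at 1.5-fold. Only miRNAs detected on both arrays gave 0 and 1, and all 455 human probes 3 and 4. Other detection thresholds gave 2 or 3 higher and 1 lower, and quantile normalisation of the 2 arrays gave 4 and 1. The cause was not tested. Of the 24 miRNAs more than 0.5 log2 from 0, 24 kept their sign under centring, without normalisation and without background correction, and 21 with the mismatch subtracted. Values of named miRNAs and lists moved by more than the 0.24 probe spread in 26 cases with the mismatch subtracted, 24 in the value table, 16 without normalisation, 13 without background correction, 6 with either centring and 3 with the offset of 16. Signal over background limits the 17 miRNAs detected at 10 nM alone and the 5 in untreated cells alone to bounds. No paired analysis was possible because each group has 1 array, and no array could be left out.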
